A study of Mus musculus with 6 samples.

Results

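The DNA replication machinery was described here by 47 mouse genes chosen by symbol: the origin recognition complex (ORC), the factors that license and fire origins, the MCM2-7 helicase and its CDC45 and GINS partners, the replicative polymerases, the PCNA clamp and its RFC loader, the enzymes that finish the lagging strand, the RPA single-strand binding complex, and proteins that guard the fork or place nucleosomes behind it. All 47 had an entry of their own among the 37753 entries that carried values, and all 47 were among the 12461 genes tested. RNA-seq had been performed on 6 libraries. The 3 control libraries (MEC 1, MEC 2 and MEC 3) were primary mammary epithelial cells of WAPCre+ C57/Bl6J mice, each prepared from 3 to 5 virgin females of 10 to 12 weeks and grown on collagen I with EGF and insulin until 90% confluent. The 3 MEKO libraries were 1 library each of the breast tumor cell lines 199, 233 and 336, labelled Mapk8KO Mapk9KO Cre+, in which both genes for the JNK1 and JNK2 kinases had been deleted; these lines were kept for 2 passages on collagen I before they were moved to ordinary dishes. Cre was driven by the whey acidic protein promoter in both groups, which acts in luminal cells during lactation, and the tumors arose in parous animals. Genotype, tumor origin, parity, culture history and medium all changed together between the groups, so their contributions to a difference cannot be told apart. The labels give no age for the tumor-bearing animals. Per the study's methods, females were bred at 10 to 12 weeks and watched for tumors after weaning. The tumor-bearing animals were therefore older than the MEC donors, and the part of age cannot be told apart either. Each tumor line is 1 line in 1 library, and a line's own error is unknown.

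As background, ORC marks origins, CDC6 and CDT1 load the MCM2-7 ring onto DNA in G1, and geminin blocks renewed loading later in the cycle. The kinase CDC7, with its activating subunit DBF4, then phosphorylates the ring, and CDC45 and GINS join it to form the moving helicase. Polymerase alpha-primase starts each strand, polymerases epsilon and delta extend the leading and lagging strands, RFC places PCNA on the primers, and FEN1, RNase H2 and LIG1 remove the primers and seal the nicks. Many of these genes are targets of the E2F transcription factors and reach their highest mRNA levels in late G1 and S phase, so the level in a bulk library depends on how many cells are cycling. In bulk samples, fewer cycling cells and less RNA per cell cannot be told apart.

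Values are FPKM, fragments scaled to transcript length and library size, and fold changes are differences of log2(FPKM + 1), tumor lines minus MEC. A gene was called when its adjusted p in limma was under 0.05 and its log2 fold change lay beyond 0.75. RNA of the deleted genes was lower in every line than in every MEC library, with the most left in line 199, and it says nothing of protein. Mapk8 was at 23.1, 25.1 and 19.2 FPKM in MEC 1, 2 and 3 and at 5.93, 3.12 and 1.37 in lines 199, 233 and 336 (limma, adjusted p = 0.0146), and Mapk9 was at 24.4, 21.5 and 22.1 against 7.62, 3.15 and 3.07 (adjusted p = 0.0122). The summed FPKM of a library lay between 557991 and 638365, and the number of reads behind the values is unknown. Epithelial markers were present in every library, with summed levels of 7509 to 11914 FPKM in MEC and 2496 to 3529 in the lines. Stromal markers summed to 392 to 564 FPKM in MEC, 1433 in line 199 and 3.11 and 4.38 in lines 233 and 336. The sum in line 199 held Col1a1 at 599.7, Col1a2 at 408 and Postn at 321 FPKM, while Dcn, Lum, Fap and Thy1 were below their MEC means there. The endothelial list summed to 18.1 and 21.0 FPKM in MEC 1 and 2 and at most 2.09 elsewhere, and the leukocyte list to 0.938 to 24.9. The part of other cell types in the results that follow was not tested.

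MEC 3 stood apart from MEC 1 and 2 in the replication genes. It held the lowest MEC level in 46 of the 47 genes (97.9%, beside 39.3% of all tested genes) and the lowest level of all 6 libraries in 43 (91.5%, beside 21.2%). The summed FPKM of the 47 genes was 1057, 1182 and 613 in MEC 1, 2 and 3 and 1597, 1159.8 and 1203 in lines 199, 233 and 336. MEC 3 was therefore at 54.8% of the mean of MEC 1 and 2, line 199 was at 143% of it, and lines 233 and 336 were at 104% and 107%. The median log2 difference between MEC 3 and the mean of the other MEC libraries was -0.84 for the 47 genes and 0.03 for all tested genes. The one gene in which MEC 3 was not the lowest MEC library was Orc5, an ORC subunit, at 10.9, 10.9 and 11.1 FPKM.

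The 10 proliferation markers, among them the Ki-67 gene Mki67 and the mitotic kinase gene Cdk1, were likewise lowest in MEC 3 and highest in line 199, each of the 10 by itself. The value of Foxm1 came from an entry joined with another gene. They summed to 520.4, 542 and 222 FPKM in MEC 1, 2 and 3 and to 979, 669 and 643 in lines 199, 233 and 336. Their median log2 fold change was 0.95, with 0 called, where 2.64% of all tested genes were called higher and 7.26% lower, and 6 (60%, beside 28.2% of all tested genes) at an unadjusted p under 0.05 in limma. The share of cycling cells in each culture was not measured, and its part in the replication genes was not tested.

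**Figure D1:**
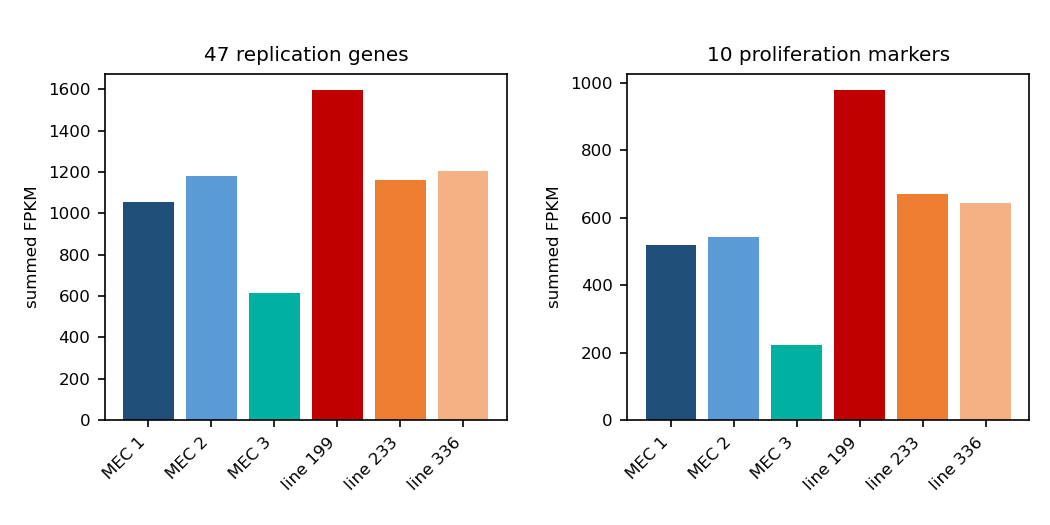
Summed FPKM (y axis, from 0) of the 47 replication genes and of the 10 proliferation markers in each of the 6 libraries, 1 bar a library. MEC 3 is the shortest bar in both panels (613 and 222) and line 199 the tallest (1597 and 979), while lines 233 and 336 stand near MEC 1 and 2 in the left panel.

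The 47 genes leaned to the side of the tumor lines, but most single differences did not exceed the spread between libraries. The fitted difference was above 0 in 43 genes and below 0 in 4 (Pold3, Pole2, Rpa2 and Rpa3), with a median of 0.53 beside 0.01 over all tested genes, of which 51.2% lay above 0. Only 1 gene, Dbf4, was called higher and 0 were called lower (limma, Benjamini-Hochberg adjusted), where 2.64% of all tested genes were called higher and 7.26% lower. At an unadjusted p under 0.05 there were 9 genes, all higher in the lines, which is 19.1% of the 47 beside 28.2% of all tested genes. In 18 genes every line was above every MEC library and in 0 every line was below, where 18.5% of all tested genes had separate groups with the lines higher and 18.7% with the lines lower. The SE of the fitted difference had a median of 0.31 in the 47 genes and 0.24 over all tested genes.

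**Figure D2:**
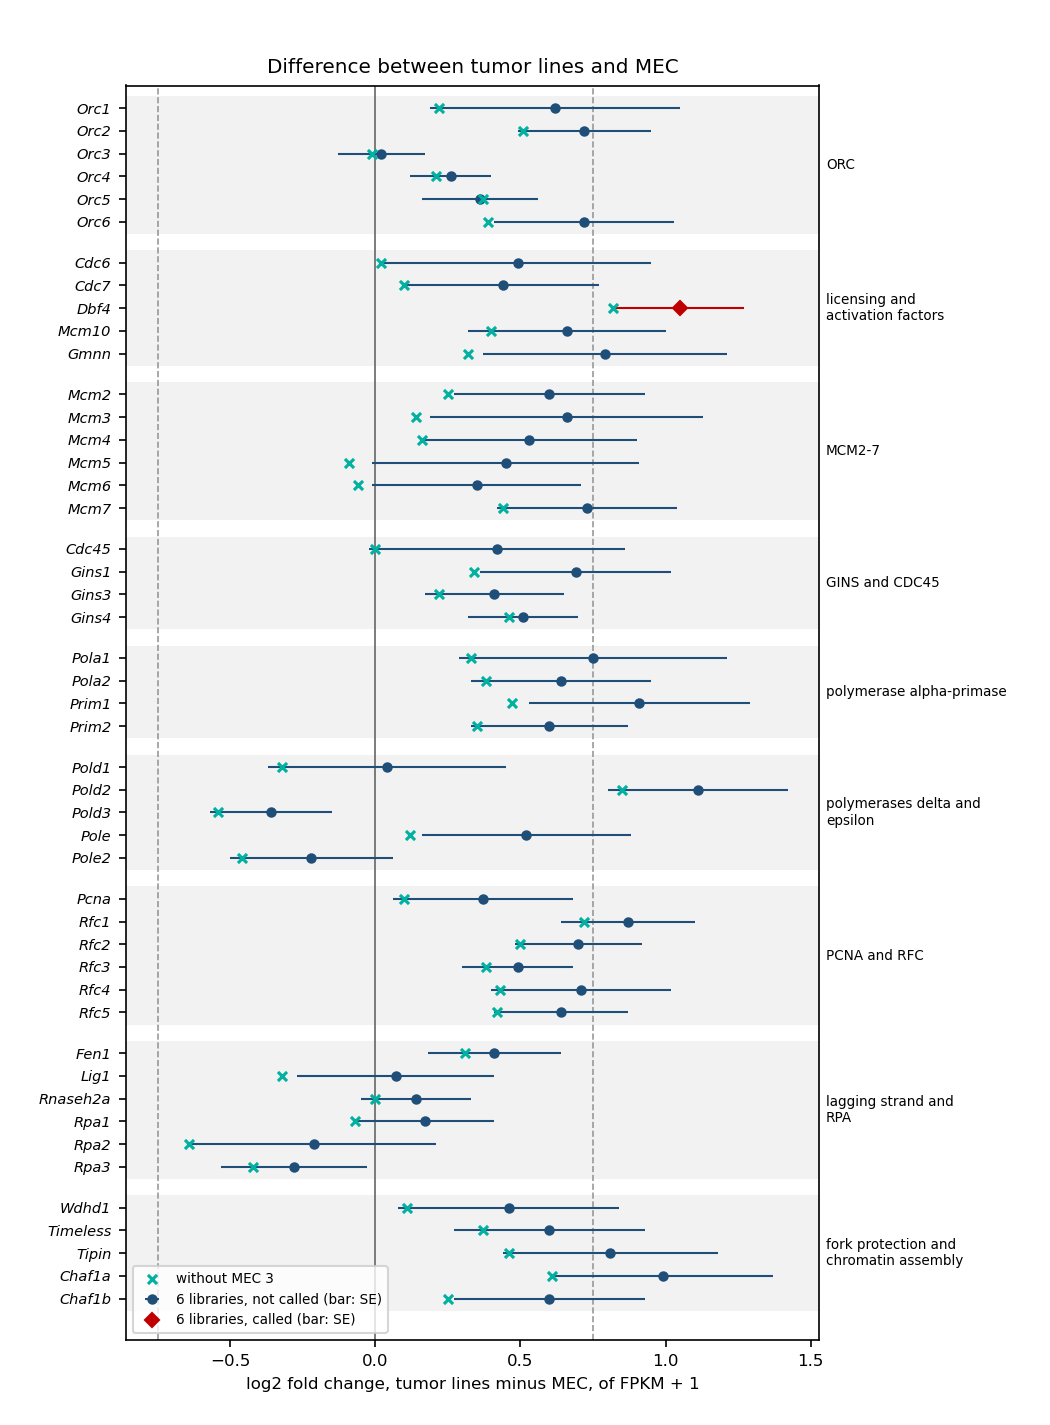
Log2 fold change of each of the 47 genes (x axis, tumor lines minus MEC, log2 of FPKM + 1), grouped by role, with bars for the SE of limma over 6 libraries; the red diamond is the called gene, crosses are the same difference without MEC 3, and dashed lines mark 0.75 in each direction. Dbf4 is the 1 called gene at 1.05, and most crosses lie left of their points, with a median of 0.25 in place of 0.53.

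Without MEC 3, a setting chosen after the data were seen for the comparisons by line, the lean became smaller. The fit without this library called 0 of the 47 genes, where 0.719% of 12377 tested genes were called higher and 3.13% lower, and 7 of the 47 had an unadjusted p under 0.05, 6 of them higher. The difference was then above 0 in 35 genes and below 0 in 12, with a median of 0.25. Dbf4 had a log2 fold change of 0.82 there (SE 0.14, limma adjusted p = 0.0503).

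Promoter sequence, which the rule for the 47 genes did not use, is shown for 7 genes chosen after their values were seen: 5 that carry E2F letters and were lower in MEC 3 than in MEC 1 and 2, 1 that carries them and was not much lower, and Dbf4. RefSeq windows (GRCm38.p6) from 250 bases before to 50 bases after the start were matched for 39 of the 47 genes. Each was searched on both strands for 4 spellings of the E2F site, TTTCCCGC, TTTCGCGC, TTTGCCGC and TTTGGCGC. At least 1 of them stood in 14 of the 39 (35.9%), beside 5.03% of the 8532 tested genes with a window and 2.6% of all 27025 genes with one. The 80 bases printed for each gene lie before its start, 5′ to 3′ on the gene's strand, with the E2F letters of either strand in capitals. Orc1, Cdc6, Mcm5 and Mcm6 were at 25.8%, 27.9%, 30.4% and 41.8% of the mean of MEC 1 and 2 in MEC 3, and Mcm7, the most abundant helicase subunit, was at 54.0%. Genes without the letters were low there too, among them Cdc7 at 36.2%, Prim1 at 36.4% and Rpa2 at 37.2%. Orc3 carries the letters and stayed at 91.9%, and Dbf4, the called gene, does not carry them in its window.
Orc1 (chr4:108579374-108579453, plus strand): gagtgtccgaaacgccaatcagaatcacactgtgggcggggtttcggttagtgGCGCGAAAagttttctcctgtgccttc
Cdc6 (chr11:98907971-98908050, plus strand): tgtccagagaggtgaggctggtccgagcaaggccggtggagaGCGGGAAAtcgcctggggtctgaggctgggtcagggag
Mcm5 (chr8:75109318-75109397, plus strand): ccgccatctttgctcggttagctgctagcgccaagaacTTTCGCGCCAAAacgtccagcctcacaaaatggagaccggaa
Mcm6 (chr1:128359715-128359794, minus strand): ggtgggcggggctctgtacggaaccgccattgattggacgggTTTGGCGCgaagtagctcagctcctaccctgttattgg
Mcm7 (chr5:138172011-138172090, minus strand): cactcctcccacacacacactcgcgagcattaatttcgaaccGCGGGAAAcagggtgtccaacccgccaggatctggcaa
Orc3 (chr4:34614946-34615025, minus strand): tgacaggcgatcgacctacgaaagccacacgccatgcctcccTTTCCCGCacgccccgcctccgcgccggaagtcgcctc
Dbf4 (chr5:8422717-8422796, minus strand): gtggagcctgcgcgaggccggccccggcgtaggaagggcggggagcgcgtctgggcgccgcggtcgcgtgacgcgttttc
Mcm7 has 2 RefSeq starts, and its stretch lies before the more upstream one. In Mcm5 the capitals are 2 overlapping matches, 1 on each strand. The 14 genes with the letters had a median log2 fold change of 0.43 between lines and MEC, and in MEC 3 they were at a median of 43% of the mean of MEC 1 and 2, with a range of 25.8% to 91.9%. The 25 genes without them had medians of 0.60 and 55.4%, with a range of 36.2% to 102%, so the ranges overlapped over most of their length. The CCAAT box, letters CCAAT, stood in at least 1 window of 59% of the 39 genes and of 43.4% of the tested genes with a window. Counted in the same way, the letters TTTGAA of the cell cycle homology region stood in 17.9% and 14%, and the Sp1 letters GGGCGG in 76.9% and 70.9%. Letters in a window are a description and say nothing of whether a factor was bound.

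Among the 6 ORC genes, 6 were fitted above 0 and none was called, where 2.64% of all tested genes were called higher and 7.26% lower. Orc2 had the largest fold change of the complex, with 18.8, 19.9 and 12.0 FPKM in MEC 1, 2 and 3 and 31.7, 27.7 and 24.7 in lines 199, 233 and 336. The groups did not overlap, and the log2 fold change was 0.72 (SE 0.23, limma adjusted p = 0.0997). Of its exonic bases, 29.8% are overlapped by Nif3l1 on the other strand, so some of its reads may belong to that gene. Orc3 was at 16.5, 18.1 and 15.9 FPKM in MEC and 19.3, 16.8 and 15.4 in the lines, with groups that overlapped and a log2 fold change of 0.02 (SE 0.15). Orc4 was the most abundant subunit in all 6 libraries, at 37.7, 37.7 and 33.6 against 46.8, 40.0 and 44.3 FPKM, and although its groups were apart its log2 fold change was 0.26 (adjusted p = 0.265 in limma). Orc1, which encodes the largest subunit, was the least abundant in all 6, at 2.92, 3.42 and 0.818 in MEC and 6.02, 2.45 and 3.69 in the lines. The ratio of Orc4 to Orc1, on the per-length FPKM scale, ran from 7.78 in line 199 to 41 in MEC 3. Orc5 and Orc6 had log2 fold changes of 0.36 and 0.72.

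The licensing and activation factors held the called gene. Dbf4, the subunit without which the CDC7 kinase is inactive, was at 28.2, 25.3 and 16.3 FPKM in MEC 1, 2 and 3 and at 46.5, 48.2 and 49.3 in lines 199, 233 and 336. Every line stood above every MEC library, and the lines lay within 1.06-fold of each other. Its mean was 2.06-fold higher in the lines, with a log2 fold change of 1.05 (SE 0.22, limma adjusted p = 0.0338), while the exact permutation test on this gene alone gave 0.1, the smallest two-sided p that 3 against 3 libraries allow. The call was lost when any of MEC 1, MEC 2, MEC 3, line 233 or line 336 was left out, with adjusted p-values of 0.0775, 0.103, 0.0503, 0.0753 and 0.075, and it was kept without line 199. The log2 fold change in those fits was 1.20, 1.12, 0.82, 1.04 and 1.03, and calls of higher genes among all tested genes also went down, from 329 to between 48 and 248. Dbf4 lies on chromosome 5, whose 746 tested genes had a median log2 fold change of 0.28, and the part of that shift in Dbf4 was not tested. Cdc7, the kinase itself, was at 3.70, 4.63 and 1.51 FPKM in MEC and 5.09, 4.67 and 3.82 in the lines. These groups overlapped, and its log2 fold change was 0.44 (SE 0.33, adjusted p = 0.423). Gmnn, which encodes geminin, was the most abundant of the 5 in mean FPKM, at 36.2, 42.8 and 14.2 against 60.0, 39.7 and 50.7, with a log2 fold change of 0.79 and an adjusted p of 0.266 in limma. Cdc6 and Mcm10 had log2 fold changes of 0.49 and 0.66 and did not pass the test.

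In the MCM2-7 helicase, whose 6 subunits form a ring with 1 copy of each, all 6 genes were fitted above 0 (0.35 to 0.73). In limma 0 were called, where 2.64% of all tested genes were called higher and 7.26% lower. An unadjusted p under 0.05 was held by 0, beside 28.2% of all tested genes. Mcm2 was at 25.3, 32.7 and 13.4 FPKM in MEC and 42.2, 31.8 and 30.6 in the lines. Mcm3 was at 34.0, 44.0 and 12.4 against 56.4, 36.1 and 37.9. Mcm4 was at 31.1, 37.2 and 15.4 against 53.0, 31.0 and 33.9. In these subunits line 199 was above every MEC library and lines 233 and 336 were below MEC 2. Mcm5 was at 26.1, 34.7 and 9.23 FPKM against 33.7, 23.7 and 28.2, and MEC 2 was its highest library. Mcm6 was at 59.2, 70.6 and 27.1 against 66.8, 53.6 and 66.5, again with MEC 2 the highest. Mcm7 was at 70.9, 73.3 and 39.0 against 131, 90.6 and 79.8, and it was the one subunit whose groups did not overlap (log2 fold change 0.73, SE 0.31, limma adjusted p = 0.182). On the per-length FPKM scale, Mcm7 was the highest subunit in all 6 libraries and Mcm5 the lowest in 4. The ratio of the highest to the lowest subunit of a library ran from 2.24 in MEC 2, where Mcm2 was the lowest, to 4.22 in MEC 3. MEC 3 held 43.2% of the summed helicase level of MEC 1 and 2, lines 233 and 336 held 99% and 103%, and line 199 held 142%. Without MEC 3 the fitted differences of Mcm5 and Mcm6 were -0.09 and -0.06.

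**Figure D3:**
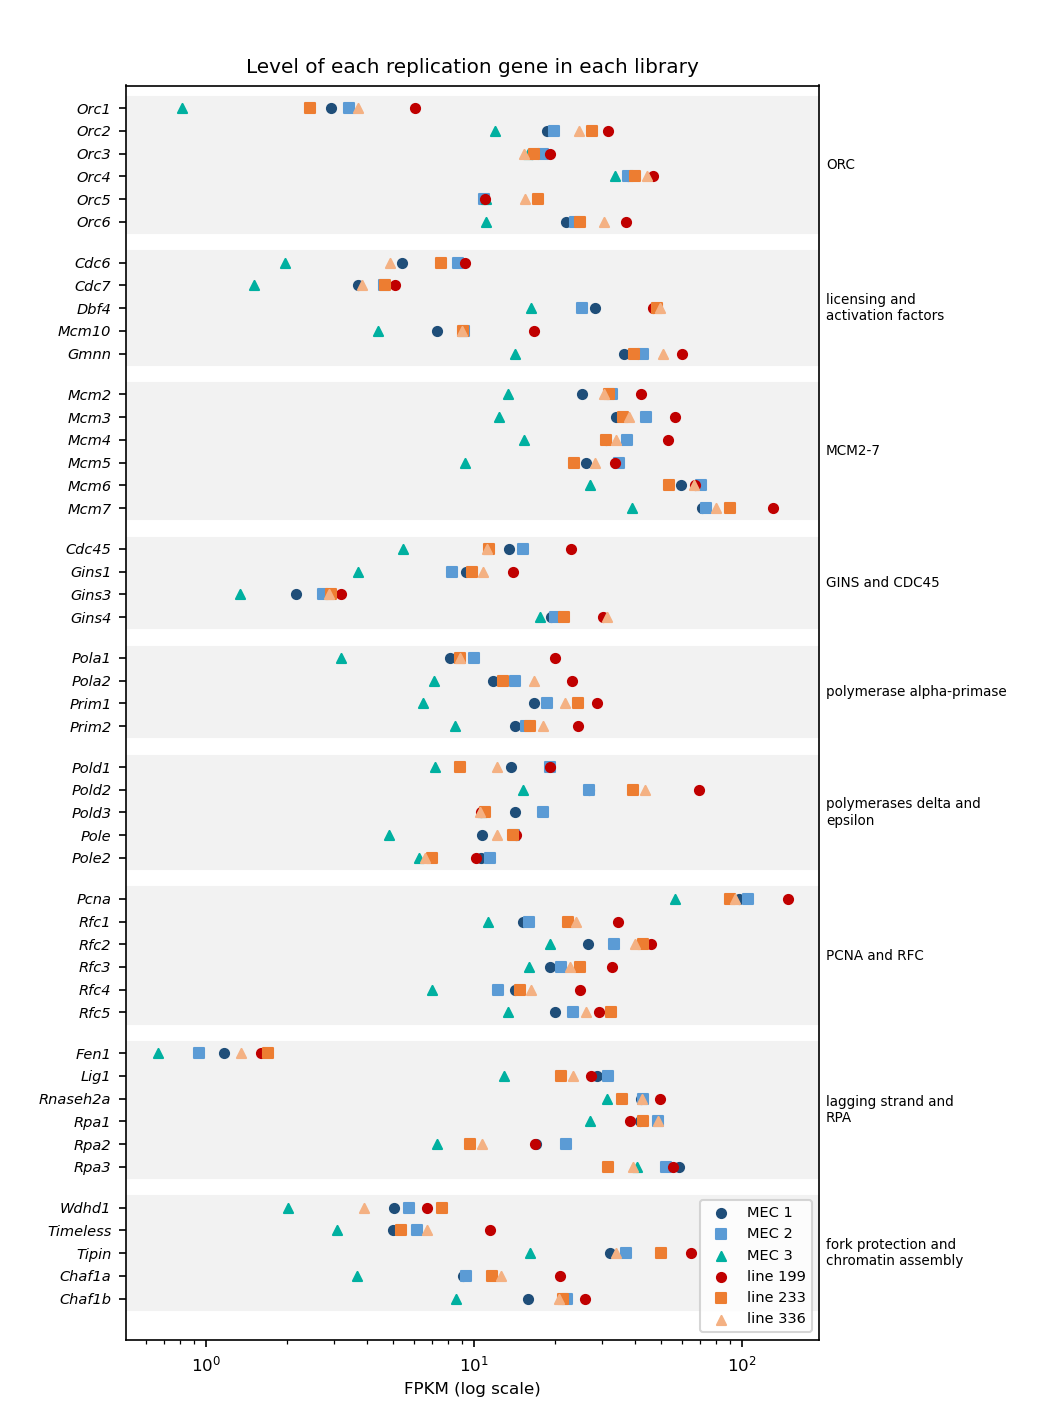
FPKM of each of the 47 genes in each of the 6 libraries (x axis, log scale), grouped by role, with MEC libraries in blue and teal and tumor lines in red and orange. The teal triangle of MEC 3 is the leftmost point in 43 of the 47 genes and the red circle of line 199 the rightmost in 33.

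CDC45 and GINS complete the helicase. Cdc45, Gins1, Gins3 and Gins4 were all fitted above 0 and none was called, where 2.64% of all tested genes were called higher and 7.26% lower. Gins2, for a further GINS subunit, was not analysed here. Gins1 was at 9.32, 8.29 and 3.71 FPKM in MEC and 14, 9.80 and 10.8 in the lines, groups that were apart (log2 fold change 0.69, SE 0.33, limma adjusted p = 0.23). Gins3 was at 2.17, 2.73 and 1.34 against 3.19, 2.94 and 2.88, also apart, with a log2 fold change of 0.41. Gins4 was at 19.4, 20.0 and 17.7 against 30.4, 21.6 and 31.5, a difference of 0.51 (SE 0.19, adjusted p = 0.139). The proteins of these genes stand in equal number in the GINS complex, yet on the per-length scale Gins4 was 7.32 to 13.2 times Gins3 in every library. MEC 3 kept 89.7% of the Gins4 level of MEC 1 and 2 but 42.2% of Gins1. Cdc45 had a log2 fold change of 0.42.

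The 4 genes of polymerase alpha-primase, which lays the first RNA-DNA primer, had a median log2 fold change of 0.70, with 0 called. Over all tested genes 2.64% were called higher and 7.26% lower. Prim1, the catalytic primase subunit, was at 16.8, 18.7 and 6.46 FPKM in MEC and 28.8, 24.5 and 21.9 in the lines, and every line was above every MEC library (0.91, SE 0.38, limma adjusted p = 0.183). Prim2, the large primase subunit, was at 14.2, 15.6 and 8.49 against 24.4, 16.2 and 18.1, also apart, with a log2 fold change of 0.60. Pola1, the polymerase subunit, separated line 199 from the other lines. It was at 8.17, 10.0 and 3.20 FPKM in MEC and 20.0, 8.84 and 8.85 in lines 199, 233 and 336, a ratio of 2.26 between the highest and the lowest line. Pola2 was fitted at 0.64.

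The polymerases delta and epsilon were the most uneven group, with a median of 0.04. Pold2, an accessory subunit of polymerase delta, had the largest fitted fold change of the 47 genes. It was at 26.8, 26.9 and 15.2 FPKM in MEC and 69.2, 39.2 and 43.5 in the lines, which did not overlap. The log2 fold change was 1.11 (SE 0.31), and with an adjusted p of 0.0731 in limma it was not called. Pold1, the catalytic subunit of the same enzyme, was at 13.7, 19.2 and 7.16 against 19.3, 8.84 and 12.2, with overlapping groups, a log2 fold change of 0.04 and a ratio of 2.18 between lines. Pold3, another accessory subunit, was at 14.2, 18.1 and 10.7 against 10.6, 11.0 and 10.5, the lowest fitted value of the 47 at -0.36 (SE 0.21, adjusted p = 0.309). The ratio of the highest to the lowest of the 5 genes, Pold2 and in most libraries Pole2, was 2.33 to 3.15 in MEC and 5.62 to 6.82 in the lines. Pole and Pole2 had log2 fold changes of 0.52 and -0.22, and neither passed the test.

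PCNA and its loader held the most genes with an unadjusted p under 0.05 in limma, 4 of 6, beside 28.2% of all tested genes. In 5 of 6 the groups did not overlap, with the lines higher, beside 18.5% of all tested genes. Pcna was the exception and the most abundant of the 47 genes, at 97.2, 105 and 56.2 FPKM in MEC and 148, 90.1 and 94.3 in the lines. Lines 233 and 336 were thus below MEC 1 and 2, and the log2 fold change was 0.37 (SE 0.31, limma adjusted p = 0.461). Rfc1, the large subunit of the loader, was at 15.3, 16.1 and 11.3 against 34.5, 22.5 and 24.0, with every line above every MEC library. Its log2 fold change was 0.87 (SE 0.23, adjusted p = 0.0605 in limma), short of the threshold. Rfc2, Rfc3, Rfc4 and Rfc5 were fitted at 0.70, 0.49, 0.71 and 0.64. The 4 genes with an unadjusted p under 0.05 in limma (Rfc1, Rfc2, Rfc3 and Rfc5) all lie on chromosome 5, as does Dbf4. Its 746 tested genes had a median log2 fold change of 0.28, beside 0.01 over all tested genes, and its 9 replication genes one of 0.64. Against the MEC mean, the chromosome's medians were 0.25, 0.38 and 0.25 in lines 199, 233 and 336. The part of this shift in the loader genes was not tested. Within the loader, on the per-length scale, Rfc2 was the highest and Rfc4 the lowest in all 6 libraries, with ratios of 1.84 to 2.86.

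The lagging-strand enzymes and RPA had the second lowest median of the role groups, 0.10. In limma, 0 of the 6 genes had an unadjusted p under 0.05, beside 28.2% of all tested genes. Rpa3, the small RPA subunit, was at 58.4, 51.9 and 40.6 FPKM in MEC and 55.3, 31.6 and 39.2 in the lines, with a log2 fold change of -0.28 (SE 0.25, limma adjusted p = 0.499). Rpa1 and Rpa2 were fitted at 0.17 and -0.21, and Rpa2 was the lowest RPA subunit in all 6 libraries. Fen1, the flap endonuclease gene, was the least abundant of the 47, at 1.17, 0.943 and 0.660 FPKM against 1.60, 1.71 and 1.35, groups that were apart (log2 fold change 0.41, adjusted p = 0.289 in limma). An antisense gene, Gm10143, overlaps 78.8% of its exonic bases, so this value is uncertain. Lig1 and Rnaseh2a, for DNA ligase I and the catalytic subunit of RNase H2, were fitted at 0.07 and 0.14. The group's summed level was 97.6%, 73.7% and 85.7% of the mean of MEC 1 and 2 in lines 199, 233 and 336, the one role group below it in all 3 lines.

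Among fork protection and chromatin assembly genes, Chaf1a had the largest fold change. This gene for the large subunit of chromatin assembly factor 1 was at 9.07, 9.33 and 3.67 FPKM in MEC and 20.9, 11.7 and 12.6 in the lines, which did not overlap. The log2 fold change was 0.99 (SE 0.38, limma adjusted p = 0.155), and Ubxn6 on the other strand overlaps 52.5% of its exonic bases. Tipin, a partner of Timeless at the fork, was at 32.1, 36.9 and 16.2 against 64.6, 50.1 and 33.8, with line 336 below MEC 2 and a log2 fold change of 0.81 (adjusted p = 0.21 in limma). Wdhd1, which tethers polymerase alpha to the helicase, was at 5.05, 5.71 and 2.03 against 6.66, 7.63 and 3.89, overlapping, with a log2 fold change of 0.46. Timeless and Chaf1b were both fitted at 0.60.

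Across the 47 genes the mean FPKM ran from 1.24 (Fen1) to 98.5 (Pcna), with a median of 19.5. A mean over 10 was held by 36 genes and one under 5 by 4, so few values were near the floor of the table.

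The 3 tumor lines differed from each other in these genes. Taken one line at a time, with no test, a gene was counted when its log2(FPKM + 1) lay over 0.75 from the MEC mean and outside the MEC range. Line 199 was higher by this count in 27 of the 47 genes, where 12.8% of all tested genes were, and lower in 0, where 16.9% were. Line 233 was higher in 6 (background 9.92%) and lower in 0 (17.5%), and line 336 was higher in 4 (11.2%) and lower in 0 (18.2%). The 6 genes of line 233 were Dbf4, Pold2, Prim1, Rfc5, Tipin and Wdhd1, and the 4 of line 336 were Dbf4, Pold2, Gmnn and Chaf1a; Rfc5 is named because of its values. Dbf4 and Pold2 were counted in all 3 lines, and the share of all tested genes counted in all 3 is not given here. The median log2 difference from the MEC mean was 0.83, 0.40 and 0.43 in lines 199, 233 and 336. Line 199 was the highest of the lines in 39 genes (83%, beside 39.6% of all tested genes) and the highest of all libraries in 33 (70.2%, beside 25.2%).

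Set against MEC 1 and 2 alone, the counts of higher genes fell, and some genes of lines 233 and 336 were counted as lower. Line 199 was higher in 12 of the 47 genes (background 11.3%) and lower in 0 (15.8%). Line 233 was higher in 1 (9.74%) and lower in 3 (17%), and line 336 was higher in 1 (11.3%) and lower in 1 (18.1%). The medians were 0.55, 0.12 and 0.13 in lines 199, 233 and 336, and those over all tested genes were 0.02, 0.01 and 0.02. Dbf4 was the gene counted as higher in both, and Rpa2 the one counted as lower in both. The stromal collagen transcript Col1a1 was at 599.7 FPKM in line 199, 44.2 to 74.7 in MEC, and 1.08 and 0.566 in lines 233 and 336. The rest of the stromal list was mixed in line 199. Col1a2, Col3a1, Pdgfra and Pdgfrb were also above the MEC mean there. Dcn, Lum, Fap and Thy1 were below it, with Dcn at 0.311 against 5.13 FPKM, and Postn was at 321 against 322. The basal keratin transcript Krt5 was at 608 FPKM in line 199 and 201 to 435 in MEC, but at 1.33 and 15.3 in lines 233 and 336, and Krt14 was at 521 against 289 to 459.7, and at 7.36 and 24.0. The rest of the epithelial list went the other way in line 199. Epcam, Cdh1, Krt7, Krt8, Krt18, Krt19, Cldn4 and Cldn7 were below their MEC means there, with Krt8 at 230.1 against 2599 FPKM. The part of these features in the level of the replication genes was not tested.

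**Figure D4:**
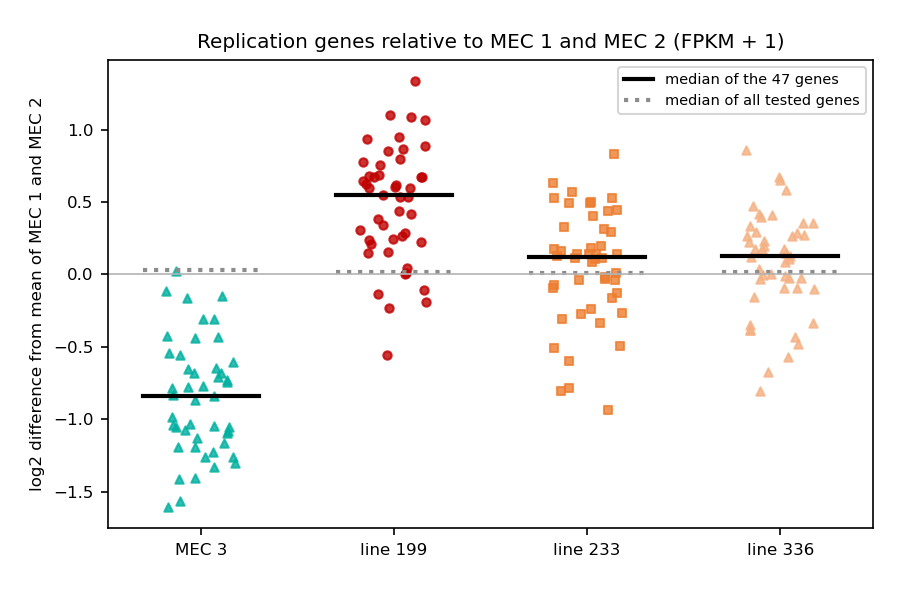
Log2(FPKM + 1) of each of the 47 genes in MEC 3 and in each tumor line, minus the mean of MEC 1 and MEC 2 (y axis), 1 point a gene; black bars are the medians of the 47 genes and dotted bars those of all tested genes. The medians are -0.84 in MEC 3, 0.55 in line 199, 0.12 in line 233 and 0.13 in line 336, while all tested genes lie near 0 in each.

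A wider list of 65 replication genes (further licensing factors and polymerase genes, clamp loaders, checkpoint genes, histone chaperones, topoisomerases, nucleotide supply and S phase cyclins) was also examined. Of these, 63 were tested and 2 (Cdt1 and Gins2) were not analysed here. Top2a and Ccna2 of this list are also among the proliferation markers, so the lists share genes. The values of 4 of the 63 (Donson, Poln, Tonsl and Atrip) came from entries joined with a neighbouring gene and are uncertain, and Donson and Poln are among the higher genes counted next. None was called in either direction in limma, with 12 at an unadjusted p under 0.05 (19%, beside 28.2% of all tested genes), 11 of them higher in the lines, and the smallest adjusted p was 0.0595. That value belonged to Rnaseh2b, a subunit of RNase H2, at 21.1, 23.0 and 25.3 FPKM in MEC and 10.9, 17.0 and 11.3 in the lines (log2 fold change -0.80, SE 0.21), a gene named after its values were seen. Its groups were apart, with the lines lower, and MEC 3 was its highest library. The fitted difference was above 0 in 49 of the 63, with a median of 0.37, and the lines were apart and higher in 14 and apart and lower in 1, beside 18.5% and 18.7% of all tested genes. MEC 3 was the lowest of all libraries in 40 of the 63 (63.5%, beside 21.2% of all tested genes).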

How the data were processed

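RNA-seq had been performed by the authors on 3 MEC and 3 MEKO libraries. Per the labels and the study's methods, reads were trimmed, aligned with TopHat2 2.0.14 and Bowtie2 to mm10, and quantified with Cufflinks 2.2.1. The deposited values are FPKM (37755 entries, of which 2 lack values and 15940 are 0 in all libraries); depth is unknown, so no counting interval was given. The labels do not say whether the 3 MEC cultures were prepared on separate days, and p-values measure only the spread between these libraries. Columns were matched to samples by their names.

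Here log2(FPKM + 1) was compared, for the 12461 genes averaging 1 FPKM or more, between groups with limma 3.58.1 (R 4.3.3, mean-variance trend, Benjamini-Hochberg adjustment); the script was tested on simulated data. Single lines were compared with the MEC range with no test. Gene positions and overlaps came from GENCODE M21 and promoter windows from RefSeq (GRCm38.p6). The members and lists were chosen with earlier results of these data known. Members named in full were every called gene, the largest, smallest and most abundant of each role group, the MCM2-7 genes, the ends of the level order, and the 3 with the largest ratio between lines: 29 of 47. Genes outside this rule are named only by fitted value, or as the text says. Alternatives were another pseudocount, filter, scaling, trend, library weighting, choice of entry, fold threshold, and each library left out.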

Additional observations from a re-analysis of the deposited data

How the results depend on the processing

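Among the 14 alternatives of the comparison between groups, the median log2 fold change of the replication genes stayed above 0, from 0.25 to 0.80 with 1 library left out (lowest without MEC 3, highest without MEC 2), against 0.53, and it was 0.28 with libraries weighted by quality. Between 0 and 1 replication genes were called higher with 1 library left out, and quantile normalization called 2, Dbf4 and Fen1 (limma). Of the wider list, 0 to 1 genes were called lower with 1 library left out. Upper-quartile scaling gave log2 fold changes of -0.02 for Orc3 and -0.01 for Pold1, and library weights gave -0.29 for Pold1. With 1 library left out, Orc3 ran from -0.06 to 0.10, Pold1 from -0.32 to 0.33, Mcm5 from -0.09 to 0.81 and Mcm6 from -0.06 to 0.61. The count for line 336 higher was 8 with a pseudocount of 0.1 and 7 with quantile normalization, against 4. Against MEC 1 and 2 alone, chosen after seeing the data, line 199 was higher in 12, line 233 higher in 1 and lower in 3, and line 336 higher in 1 and lower in 1. Of 402 alternative values of the 29 genes named by rule, 387 kept direction and side of the threshold, 5 (all Dbf4) lost the call, 1 (Fen1) gained it and 9 turned direction; the cause was not tested. Over all genes, calls ran from 48 to 568 higher and 211 to 1398 lower with 1 library left out, 501 were lower with a mean of at least 5 FPKM, and library weights gave 600 higher and 1378 lower. Depth is unknown, so no limit by depth was set. No paired analysis was possible because the labels give the groups no shared replicate numbers.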
